A study of Mus musculus with 20 samples.

Results

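The data described here are the 4 libraries labelled p73 knockout from the start of a culture at the air-liquid interface: both libraries labelled day 0 and both labelled day 4, out of 20 libraries in all. They were chosen by the genotype and day in their labels, and the 2 days were compared to describe how cultures labelled p73 knockout changed after exposure to air. The cells were primary mouse tracheal epithelial cells grown on Transwell membranes, from mice with a global knockout of p73 or from wild-type mice, and every culture was kept at the air-liquid interface and sampled at 0, 4, 7 or 14 days after exposure. The series text speaks of 3 independent biological replicates for each genotype; each day had 3 wild-type and 2 knockout libraries here. The 3 wild-type libraries of day 0 and the 3 of day 4 served as the comparison. Day 0 is the day on which the liquid above the cells is taken away. Replicate 1 of day 4 is titled day 3 in both genotypes and was kept at day 4, as its other labels state. Strain, sex, age and the number of animals behind a culture were not among the labels used here.

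A tracheal epithelium holds basal cells, which are its stem cells, and secretory and multiciliated cells, which arise from them. Submerged tracheal cultures consist mostly of proliferating basal-like cells, and exposure of their upper surface to air starts differentiation. A multiciliated cell first switches on regulators such as Gmnc, Mcidas and Foxj1, then makes many centrioles, and then builds motile cilia whose beat is driven by dynein arms. The gene Trp73 encodes p73, a transcription factor of the p53 family that is known to act early in this programme.

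The 4 knockout libraries held 31.5 and 28.4 M reads at day 0 and 28.7 and 27.5 M at day 4, and the wild-type libraries of those days 3.27 to 29.9 M, the lowest being replicate 3 of day 4. In knockout replicate 2 of day 4 the 50 most abundant genes took 20.04% of reads, the highest share of the 20 libraries, against 14.4% in replicate 1. On the first principal component, with 68.1% of the variance, the knockout libraries of day 0 lay at -77.5 and -81.6 and those of day 4 at 3.33 and 1.396. On the second, with 8.70%, replicate 2 of day 4 lay at -27.3 and replicate 1 at -1.48. In RNA from whole cultures, more cells of a type and more RNA per cell cannot be told apart.

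Levels are in CPM, a gene's reads relative to the scaled total of its library, in the order replicate 1, replicate 2. A change is the difference of log2(CPM + 0.5) between day 4 and day 0, given ± SE; for genes of low level it is smaller than the true fold change. It was tested with limma, and a gene is called at an adjusted p (FDR) under 0.05 over all 15738 tested genes.

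Trp73 itself went against the label. Its level in the libraries labelled knockout was 49.2 and 48.7 CPM at day 0 and 35.1 and 27.5 CPM at day 4 (change -0.65 ± 0.39, FDR 0.284). In wild type it was 2.696, 2.198 and 1.07 CPM at day 0 and 9.83, 22.03 and 23.3 CPM at day 4, a rise of 2.89 ± 0.32 (FDR 4.56e-06). The libraries labelled knockout thus held more Trp73 transcript than every wild-type library of the same day. At days 7 and 14 the labelled-knockout libraries held 16.7 to 30.5 CPM and wild type 22.2 to 34.9 CPM. The gene lies on chromosome 4, 154056253 to 154140208 (GRCm38, minus strand). Which exons the knockout lacks is not given in the sources used here, so a level per gene cannot check the deletion, and all directions below are between libraries as labelled.

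The change from day 0 to day 4 was broad in the libraries labelled knockout. No culture was kept submerged to day 4, so air exposure and time in culture cannot be told apart. Of the 15738 genes, 3159 were called (20.1%), 1455 of them higher at day 4 (9.25%) and 1704 lower (10.8%), and the median change over all genes was 0.01. At least an 8-fold change was seen for 202 of the called genes that rose and 103 of those that fell. In wild type 4244 genes were called (27.0%), 2153 higher (13.7%) and 2091 lower (13.3%), with 3 libraries a day in place of 2. Of the 3159 genes called in labelled knockout, 2578 were also called in wild type, 2575 of them in the same direction; this is 81.6% of the labelled-knockout calls and 60.7% of the wild-type calls. Across the 15738 genes the changes of the 2 genotypes had a Pearson r of 0.891; the points share the scaling and the fit but no library. Scaled by library size alone, 56.2% of the labelled-knockout calls were higher, against 46.1% as reported. Without replicate 1 of day 4, the library titled day 3, 2050 genes were called; without replicate 2 of day 4, 1959 were.

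Of the 12 largest rises, Ccdc67, Tekt1, Ccno and Dnahc5 belong to the ciliary gene lists described below. Lrrc23, a component of the radial spoke of the ciliary axoneme (chromosome 6, 124769863 to 124779727), had 0.339 and 0.514 CPM at day 0 and 157 and 136 CPM at day 4 (7.31 ± 0.49, FDR 5.18e-08). Ccdc67, whose protein Deup1 builds the deuterosome on which new centrioles form, went from 0.136 and 0.593 to 104 and 109 CPM (7.00 ± 0.42, FDR 1.88e-08). Sec14l3, which encodes a lipid-binding protein, went from 2.34 and 2.13 to 209 and 265 CPM (6.43 ± 0.51, FDR 4.65e-07). In each of these genes both day 4 libraries lay far above both day 0 libraries. Cyp4b1, a cytochrome P450 of airway cells, had 4.78 and 8.85 CPM at day 0 and 355 and 382 CPM at day 4 (5.71 ± 0.30, FDR 4.89e-09). Cyp2a5, another P450, had 9.77 and 57.99 and then 1692 and 2502 CPM (6.39 ± 0.55, FDR 8.26e-07); reads of its near-identical neighbour Cyp2a4 may be shared with it. The dynein subunit Dynlrb2 rose by 6.16 ± 0.47 (FDR 2.42e-07) and the axonemal Wdr16 by 5.78 ± 0.42 (FDR 1.49e-07), again with no overlap between days. Lyz2 had 8.75 and 49.8 CPM at day 0 and 869 and 7213 CPM at day 4 (6.86 ± 0.92, FDR 5.58e-05), and Lyz1, its near-identical neighbour on chromosome 10, had 0.339 and 2.77 and then 31.5 and 551 CPM (6.33 ± 1.19, FDR 0.00117). Both were higher at day 4 in both replicates, and replicate 2 was far above replicate 1.

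Of the 12 largest falls, Ndufa4l2 and Car9 belong to the hypoxia list and Slc16a3 to the glycolysis list. Ndufa4l2, a mitochondrial protein induced by hypoxia (chromosome 10, 127514967 to 127517154), had 183 and 430.4 CPM at day 0 and 0.203 and 0.739 CPM at day 4 (-8.24 ± 0.37, FDR 1.46e-09). Slc16a3, the lactate exporter Mct4, had 257 and 252 and then 3.31 and 2.68 CPM (-6.20 ± 0.34, FDR 7.28e-09). Mgarp, a mitochondrial protein also known to be induced by hypoxia, had 14.6 and 11.9 and then 0.0338 and 0.0389 CPM (-4.68 ± 0.26, FDR 8.18e-09). In all 3 genes every day 4 library lay far below every day 0 library. Atf3, a stress-induced transcription factor, fell by 4.86 ± 0.55 (FDR 1.12e-05), from 271 and 230.3 to 6.56 and 9.998 CPM. The chemokine genes Cxcl2 and Cxcl3 fell by 4.75 ± 0.43 (FDR 1.43e-06) and 4.68 ± 0.63 (FDR 5.58e-05). Bst1, a cell surface enzyme that makes cyclic ADP-ribose, fell by 4.87 ± 0.32 (FDR 5.11e-08), and Diras2, a small GTPase, fell by 5.29 ± 0.45 (FDR 7.33e-07). Sftpb, a surfactant protein best known from the lung, went from 81.8 and 128 to 3.92 and 3.35 CPM (-4.64 ± 0.38, FDR 6.11e-07). The keratin Krt20 had 251 and 77.9 and then 5.72 and 4.01 CPM (-4.73 ± 1.19, FDR 0.00928); it was no longer called without replicate 1 of day 0 (FDR 0.0833) or replicate 2 of day 4 (FDR 0.0633).

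**Figure D1:**
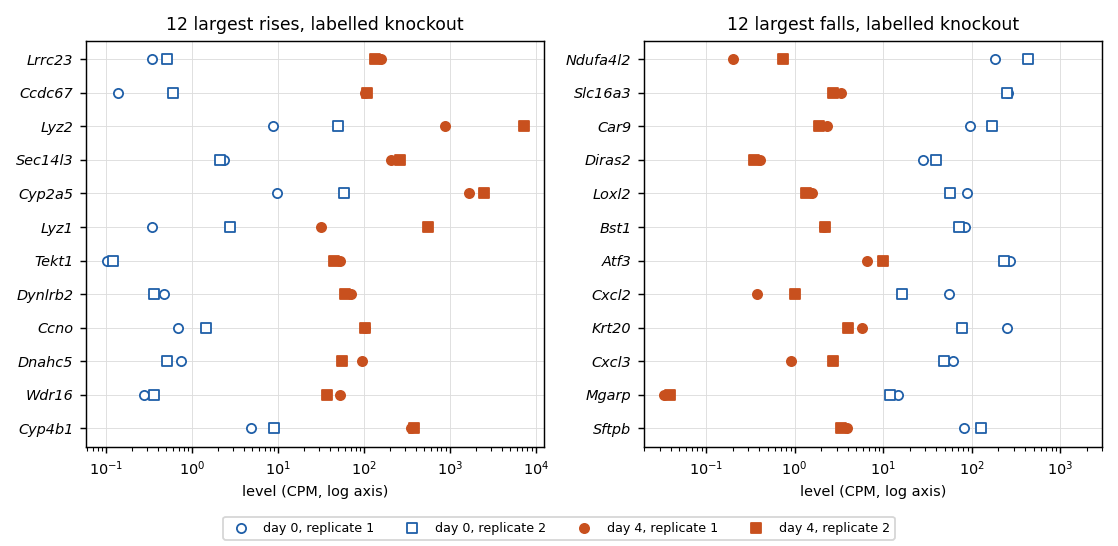
Level of the 12 genes with the largest rise (left) and the 12 with the largest fall (right) in each of the 4 libraries labelled knockout, in CPM on a log axis; open symbols are day 0, filled symbols day 4, circles replicate 1 and squares replicate 2. No gene shown has overlapping days, by the rule that chose them, and Lyz2 and Lyz1 have the widest spread within day 4.

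Among the regulators of multiciliated cells, 9 of 17 tested genes rose in labelled knockout and none fell (9.25% of all genes rose), with a median change of 1.43 against 0.01 over all genes. Ccno, a cyclin-like protein required for centriole amplification, had 0.678 and 1.46 CPM at day 0 and 104 and 102 CPM at day 4 (6.09 ± 0.34, FDR 8.18e-09). Mcidas, a co-activator of E2f4 and E2f5 that commits cells to the multiciliated fate, went from 0.339 and 0.277 to 38.04 and 36.96 CPM (5.56 ± 0.34, FDR 2.75e-08). Gmnc, which acts upstream of Mcidas, went from 0.373 and 0.119 to 26.2 and 34.4 CPM (5.38 ± 0.36, FDR 5.74e-08). These 3 genes were low in both day 0 libraries, and within each gene the replicates of day 4 lay close together. Cdc20b, which hosts the miR-449 genes, rose by 5.49 ± 0.36 (FDR 4.62e-08). Myb, which acts as cells leave the cycle to amplify centrioles, rose by 4.81 ± 0.46 (FDR 2.36e-06), and Foxn4 by 4.75 ± 0.47 (FDR 3.18e-06). Foxj1, the factor that switches on genes of motile cilia, had 22.3 and 21.1 CPM at day 0 and 258 and 227 CPM at day 4 (3.45 ± 0.34, FDR 3.31e-06). Its level in both day 0 libraries was above that of the other 8 regulators that rose. Fank1 rose by 3.07 ± 0.49 (FDR 3.12e-04) and Rfx3, a factor that binds the X-box of ciliary promoters, by 1.43 ± 0.30 (FDR 0.0027).

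The other 8 regulators were not called in labelled knockout. Rfx2, a relative of Rfx3, had 12.1 and 13.4 CPM at day 0 and 23.4 and 15.4 CPM at day 4 (0.56 ± 0.29, FDR 0.209), and Jazf1 changed by 0.66 ± 0.32 (FDR 0.167). In wild type Rfx2 rose by 1.10 ± 0.24 (FDR 0.00261) and Jazf1 by 1.00 ± 0.26 (FDR 0.00849). The genotype difference in the change was -0.54 ± 0.38 for Rfx2 and -0.34 ± 0.41 for Jazf1, and neither was called (both FDR 1.00). E2f4 and E2f5, the partners of Mcidas, and their dimer partners Tfdp1 and Tfdp2 had changes of -0.0020 ± 0.18, -0.0024 ± 0.17, -0.05 ± 0.30 and 0.15 ± 0.17, and the days overlapped in all 4. Foxn2 changed by -0.05 ± 0.20, and Trp73 completes the list. In wild type 12 of the 17 rose, with a median of 2.89. The change of Foxj1 was 3.72 ± 0.28 in wild type, and the difference between genotypes -0.27 ± 0.44; for Gmnc, Mcidas and Ccno the difference was 0.85 ± 0.47, 0.38 ± 0.44 and 0.75 ± 0.44.

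**Figure D2:**
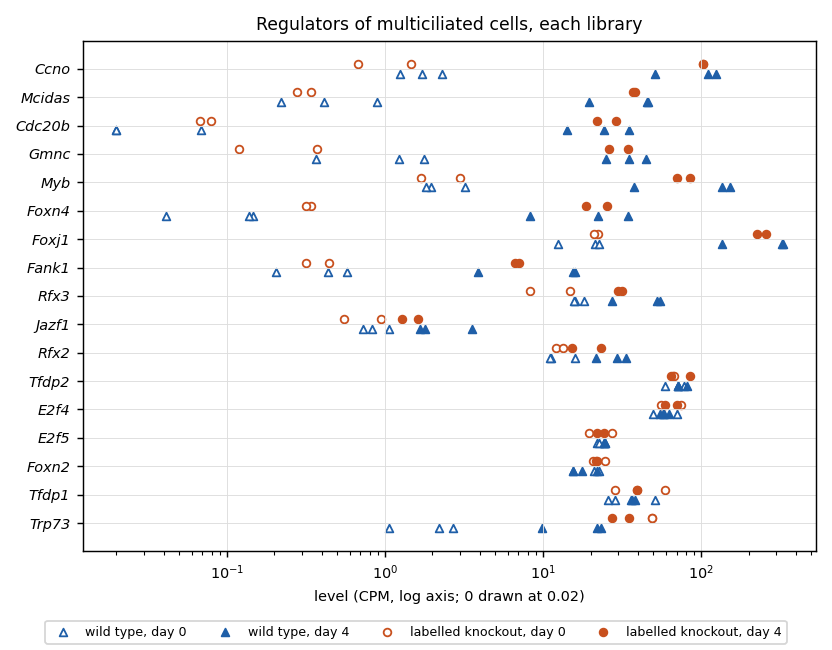
Level of the 17 tested regulators of multiciliated cells in each library of days 0 and 4, in CPM on a log axis; triangles are wild type, circles labelled knockout, open symbols day 0 and filled symbols day 4. In 9 genes the filled circles lie well to the right of the open circles, while Trp73 is the gene in which the open circles lie to the right of every triangle.

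Genes of centriole amplification and of the cilium itself rose with the regulators. Over 6 lists of such genes, regulators included, 98 of 131 tested members rose in labelled knockout and none fell. In wild type 116 rose and none fell. Over all genes, 9.25% rose in labelled knockout and 13.7% in wild type. These shares also stand beside the counts of each of the 6 lists. The median change was 1.74 in labelled knockout and 2.07 in wild type. The change was smaller in labelled knockout for 81 of the 131 members (61.8%), against 51.7% of all tested genes. Members measured in the same libraries are not independent observations, so the count is not a test. The median difference was -0.09, and Trp73 was the member called for it. Wild-type replicate 1 of day 4, titled day 3, was the low wild-type library of that day. The list of axonemal dynein arms summed to 394 CPM there and to 1027 and 1042 CPM in the other wild-type libraries of day 4. In labelled knockout it summed to 650.7 and 443 CPM at day 4. The wild-type medians and the differences include that library.

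Of 22 genes of centriole amplification, 16 rose (median 1.27). After Ccdc67 the largest rise was that of Ccdc78, which is also part of deuterosomes, from 0.475 and 0.158 to 11.7 and 10.1 CPM (3.83 ± 0.50, FDR 4.25e-05). Plk4, the kinase that starts centriole duplication, had 23.8 and 8.22 CPM at day 0 and 71.2 and 67.5 CPM at day 4 (2.26 ± 0.45, FDR 0.00186). The 2 day 4 libraries were alike, while replicate 1 of day 0 was well above replicate 2, and the days did not overlap. Cep97, which caps centrioles together with Ccp110, rose by 2.15 ± 0.27 (FDR 2.69e-05). Not called were Sass6, which forms the cartwheel of a new centriole (9.97 and 6.48 and then 14.2 and 12.02 CPM, 0.66 ± 0.30, FDR 0.144), Cetn2 (0.75 ± 0.35, FDR 0.152), and Cep63, Nek2, Cep72 and Poc1b. Without replicate 1 of day 4 the number that rose was 6, and without replicate 2 of day 0 it was 7.

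Of 24 tested genes of the axonemal dynein arms, the motors of the cilium, 22 rose in labelled knockout (median 3.90) and 23 in wild type (median 4.43). Dnahc5, the outer arm heavy chain whose loss causes primary ciliary dyskinesia in humans, had 0.746 and 0.514 CPM at day 0 and 94.6 and 55.7 CPM at day 4 (6.02 ± 0.45, FDR 2.28e-07). Dnali1, an inner arm light chain, had 0.407 and 0.514 and then 44.6 and 27.5 CPM (5.21 ± 0.51, FDR 3.02e-06). Dnahc6, an inner arm heavy chain, had 0.136 and 0.158 and then 29.7 and 15.6 CPM (5.09 ± 0.42, FDR 7.19e-07). In these genes replicate 1 of day 4 was above replicate 2, and both were far above day 0. Ccdc40 and Ccdc151, which help to place inner arms and to dock outer arms, rose by 5.07 ± 0.45 (FDR 1.20e-06) and 5.04 ± 0.41 (FDR 5.93e-07). The exceptions were Dnalc4 (0.27 ± 0.15, FDR 0.217) and Dnahc7a, which stayed below 0.5 CPM and shares sequence with Dnahc7b.

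Dynein arms are put together in the cytoplasm before they enter the cilium, and 9 of 11 tested factors of this assembly rose (median 2.39). Zmynd10 had 0.407 and 0.949 and then 43.4 and 33.7 CPM (5.08 ± 0.41, FDR 5.93e-07), Dnaaf1 rose by 4.56 ± 0.45 (FDR 3.26e-06) and Lrrc6 by 4.11 ± 0.46 (FDR 1.12e-05). Dnaaf2 was not called (15.6 and 16.5 and then 21.98 and 20.7 CPM, 0.40 ± 0.26, FDR 0.309).

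Of 30 tested genes of the radial spokes, the central pair, the nexin link and related axonemal parts, 26 rose (median 3.10). Tekt1, a filament protein inside the doublet microtubules, had 0.102 and 0.119 CPM at day 0 and 51.98 and 44.9 CPM at day 4 (6.32 ± 0.47, FDR 2.31e-07). Rsph1, a protein of the spoke head, had 2.58 and 1.74 and then 69.2 and 61.7 CPM (4.65 ± 0.50, FDR 6.31e-06), and Spag6, of the central pair, rose by 4.53 ± 0.44 (FDR 2.95e-06). Both day 4 libraries were above both day 0 libraries in all 30 genes. How often this occurs over all tested genes was not counted. Sntn, which encodes sentan at the tip of motile cilia, stood apart from the rest of its list. It had 0.0678 and 0 CPM in labelled knockout at day 0 and 0.271 and 0.389 CPM at day 4 (0.64 ± 0.84, FDR 0.664), and rose in wild type from a mean of 0.0685 ± 0.119 to 16.5 ± 12.7 CPM (± SD, n = 3; 4.34 ± 0.68, FDR 1.61e-04). The genotype difference of -3.70 ± 1.08 was not called (FDR 0.753, unadjusted p 0.00333 from limma). Also not called in labelled knockout were Ropn1l (1.54 ± 0.53, FDR 0.0508), Tekt2 (1.26 ± 0.47, FDR 0.0708) and Rsph3b (0.85 ± 0.36, FDR 0.113).

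Intraflagellar transport carries parts into cilia of every kind, and 16 of its 27 tested genes rose, with a median of 0.89, the lowest of the 6 lists. Dync2h1, the heavy chain of the motor that returns particles to the cell body, had 13.6 and 8.38 CPM at day 0 and 57.7 and 43.3 CPM at day 4 (2.17 ± 0.31, FDR 1.04e-04), and Ift57 had 12.8 and 14.8 and then 46.4 and 45.8 CPM (1.71 ± 0.21, FDR 2.61e-05). Ift52 and Ift20 were not called (0.13 ± 0.19, FDR 0.683, and 0.46 ± 0.32, FDR 0.369).

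Of the 98 genes that rose, 76 could be matched to a RefSeq promoter window from 250 bases before to 50 bases after a start (GRCm38.p6). The letters GTTGCC, which occur within the X-box bound by Rfx factors, were found on either strand in the windows of 34 of them (44.7%), against 14.1% of all 27025 genes with a window. They were also in the windows of 12 of the 28 other members of these lists with one. The 250 bases before the start are shown for the genes with the largest rise that hold a match, with the match in capitals (GTTGCC, or GGCAAC where it is on the other strand).
Ccdc67, chr9:15627847-15628096, minus strand: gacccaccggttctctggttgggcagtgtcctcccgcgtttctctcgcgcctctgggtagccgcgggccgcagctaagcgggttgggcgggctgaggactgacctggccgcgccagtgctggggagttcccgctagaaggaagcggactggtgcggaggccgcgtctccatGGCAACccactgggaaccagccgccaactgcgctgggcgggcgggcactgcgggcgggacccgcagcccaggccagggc
Tekt1, chr11:72361883-72362132, minus strand: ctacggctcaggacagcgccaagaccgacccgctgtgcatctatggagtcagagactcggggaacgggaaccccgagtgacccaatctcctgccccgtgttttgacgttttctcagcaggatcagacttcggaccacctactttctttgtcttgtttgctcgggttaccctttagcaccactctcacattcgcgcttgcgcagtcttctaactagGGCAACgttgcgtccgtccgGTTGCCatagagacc
The match begins 79 bases before the start in Ccdc67, and in Tekt1 there are 2, which begin 35 and 15 bases before it. A match is a description of the letters and does not show that a factor binds.

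The list of genes induced by hypoxia fell. When oxygen is short, the factor Hif1 is stabilised and raises genes of glycolysis, glucose and lactate transport and acid balance, and the prolyl hydroxylases that destroy it are among its own targets. Of 30 tested genes of this response 25 fell in labelled knockout and none rose (10.8% of all genes fell), with a median of -1.70, and 23 fell in wild type (median -1.62). Car9, a carbonic anhydrase at the cell surface, had 95.7 and 168 CPM at day 0 and 2.2996 and 1.87 CPM at day 4 (-5.63 ± 0.37, FDR 5.11e-08). Egln3, a prolyl hydroxylase of Hif1, had 1138 and 1248 and then 53.3 and 90.5 CPM (-4.09 ± 0.31, FDR 2.42e-07). Car12, another carbonic anhydrase, had 154 and 203 and then 4.701 and 25.9 CPM (-3.92 ± 0.60, FDR 2.01e-04). In Egln3 and Car12 replicate 2 of day 4 was above replicate 1 but far below day 0. Ero1l, an oxidase of the endoplasmic reticulum, went from 867 and 2896 to 88.5 and 136 CPM (-3.84 ± 0.44, FDR 1.23e-05). Not called were Higd1a (-0.73 ± 0.35, FDR 0.16), Kdm3a (-0.28 ± 0.19), Ankrd37 (-0.13 ± 0.78), Stc2 (0.02 ± 0.48) and Ppp1r3c (0.58 ± 0.35).

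Glycolysis genes fell in 13 of 16 cases and none rose, with a median of -1.68 (wild type 13, median -1.52). Over all genes, 10.8% fell in labelled knockout and 13.3% in wild type. After Slc16a3 the largest falls were those of Pfkp, a phosphofructokinase, from 219.8 and 258 to 52.7 and 45.1 CPM (-2.28 ± 0.21, FDR 1.48e-06), and Pgk1, from 74.3 and 91.6 to 15.01 and 21.8 CPM (-2.16 ± 0.25, FDR 1.43e-05). Tpi1, the triose phosphate isomerase, had 1292 and 1204 CPM at day 0 and 288 and 415 CPM at day 4 (-1.85 ± 0.18, FDR 3.26e-06). The days did not overlap in 15 of the 16 genes, but the share of all tested genes without overlap was not counted. Pgk1, Tpi1 and other genes of this list have processed pseudogenes with near-identical sequence, and how reads that match several places were counted is not given in the sources used here, so their levels may be too low. Hk1 (-0.34 ± 0.16, FDR 0.155), Pfkm (-0.28 ± 0.21, FDR 0.406) and Eno2 (-0.33 ± 0.80, FDR 0.83) were not called. The fall of Slc16a3 was 6.20 ± 0.34 in labelled knockout and 3.90 ± 0.27 in wild type, and the difference of -2.29 ± 0.43 was not called (FDR 0.117, unadjusted p 6.69e-05 from limma).

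Over both lists, 32 of the members that fell were matched to a promoter window, and the letters ACGTG, the core of the site bound by hypoxia factors, were on either strand in those of 23 (71.9%), against 21.8% of all genes with a window. They were also in the windows of 5 of the 8 other members. ACGTG is also part of the E-box CACGTG, which other factors bind. The 3 genes with the largest fall that hold a match are shown, with the match in capitals (ACGTG, or CACGT where it is on the other strand).
Slc16a3, chr11:120948817-120949066, plus strand: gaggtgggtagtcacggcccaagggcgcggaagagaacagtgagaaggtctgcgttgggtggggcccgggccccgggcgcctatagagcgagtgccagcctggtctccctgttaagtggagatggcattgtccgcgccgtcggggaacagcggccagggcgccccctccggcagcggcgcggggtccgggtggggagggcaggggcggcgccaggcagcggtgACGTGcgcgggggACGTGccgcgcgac
Car9, chr4:43506776-43507025, plus strand: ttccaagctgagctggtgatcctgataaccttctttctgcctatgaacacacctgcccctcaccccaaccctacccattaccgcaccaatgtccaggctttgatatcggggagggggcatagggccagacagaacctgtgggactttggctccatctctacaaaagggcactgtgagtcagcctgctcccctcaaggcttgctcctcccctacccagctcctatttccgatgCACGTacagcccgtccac
Egln3, chr12:54203875-54204124, minus strand: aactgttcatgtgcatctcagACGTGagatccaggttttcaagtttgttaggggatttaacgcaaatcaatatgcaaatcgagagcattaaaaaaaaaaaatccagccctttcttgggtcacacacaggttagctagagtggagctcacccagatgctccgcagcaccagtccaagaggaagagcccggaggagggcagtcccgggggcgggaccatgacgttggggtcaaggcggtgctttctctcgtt
In Slc16a3 the 2 matches begin 27 and 14 bases before the start, in Car9 the match begins 18 bases before it, and in Egln3 229 bases.

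**Figure D3:**
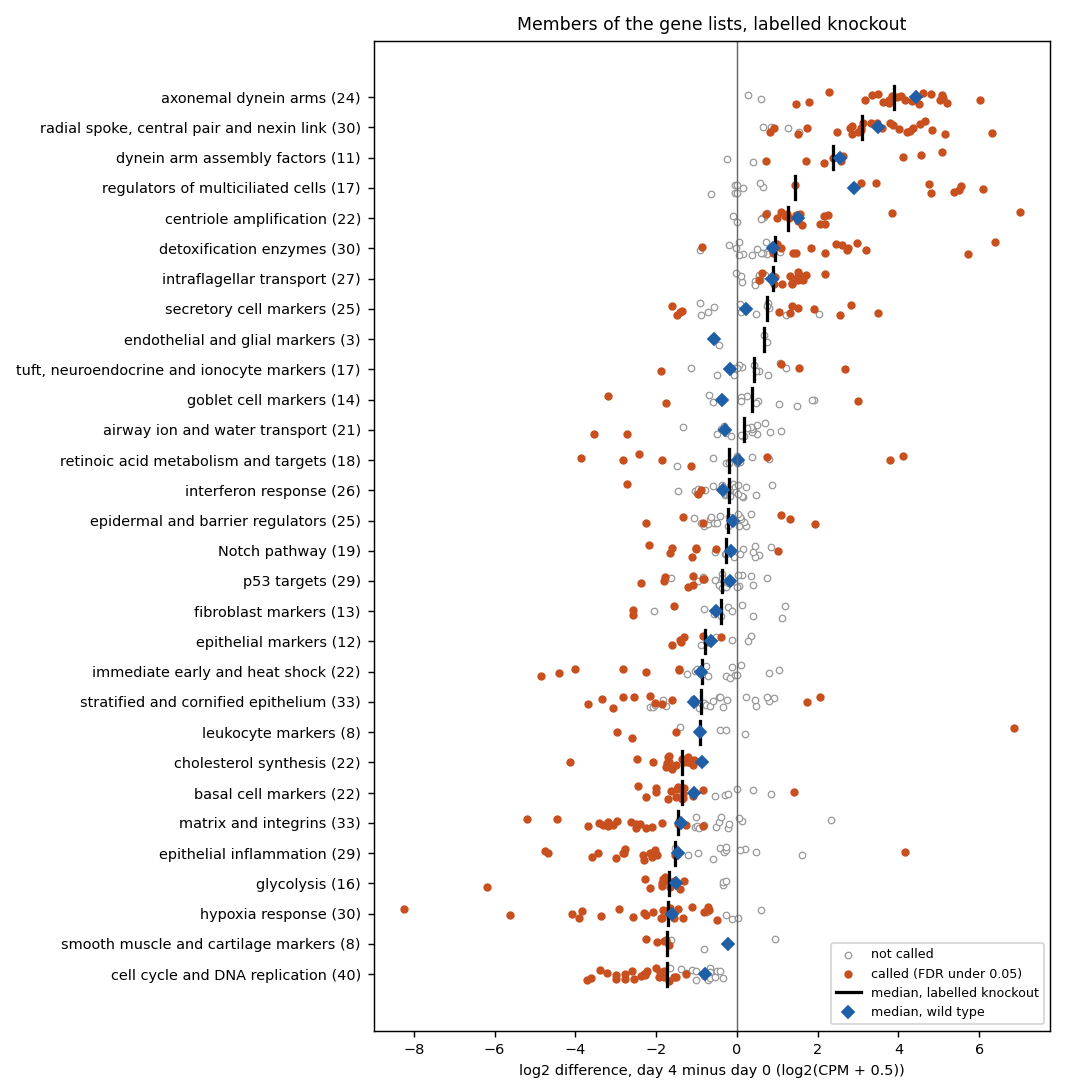
Change from day 0 to day 4 in labelled knockout for each tested member of 30 gene lists (log2 difference; number of members in parentheses); filled points are genes called at an FDR under 0.05, open points genes not called, the bar is the list's median and the diamond the median of the same list in wild type. Lists are in order of their median, so the ciliary lists lie toward the top with most members to the right of 0, and hypoxia, glycolysis, smooth muscle and cell cycle genes at the bottom; the list of endothelial and glial markers, with 3 tested members, has none called.

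Most tested basal cell markers and matrix genes fell. Of 22 tested basal cell markers 15 fell and 1 rose (median -1.35, and in wild type 16 and 1, median -1.06). Among all genes 10.8% fell and 9.25% rose in labelled knockout. Krt17, a keratin of activated basal cells, had 677 and 769.9 CPM at day 0 and 137 and 125 CPM at day 4 (-2.46 ± 0.48, FDR 0.00144). Krt5, the keratin that defines basal cells, had 3470.4 and 2398 and then 836 and 941 CPM (-1.70 ± 0.35, FDR 0.00207). Lama3, a chain of the laminin beneath them, fell by 2.02 ± 0.24 (FDR 1.98e-05). The days did not overlap in these genes. Krt14, the partner of Krt5, had 2549 and 1149 and then 377 and 344 CPM (-2.25 ± 0.53, FDR 0.00588), and was not called without replicate 1 of day 0 (FDR 0.0785). Trp63, a relative of Trp73 that maintains basal cells, was not called, with 222 and 142 CPM at day 0 and 115 and 126 CPM at day 4 (-0.55 ± 0.26, FDR 0.162). Krt15, another basal keratin, was the gene that rose, from 1521 and 1369.6 to 3318 and 4408 CPM (1.41 ± 0.41, FDR 0.0223); its call was lost without replicate 1 or 2 of day 0 (FDR 0.0616 and 0.102) or replicate 2 of day 4 (FDR 0.149). Pdpn, Dst, Dapl1, Aqp3 and Dlk2 were not called.

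Of 33 tested genes of the matrix and its integrin receptors 20 fell and none rose (median -1.47, and in wild type 21 and 0). Over all genes, 10.8% fell in labelled knockout and 13.3% in wild type. Loxl2, an enzyme that links collagen, had 88.3 and 56.6 CPM at day 0 and 1.56 and 1.36 CPM at day 4 (-5.19 ± 0.47, FDR 1.48e-06). Plau, a secreted protease that activates plasminogen, had 233 and 154 and then 22.02 and 13.4 CPM (-3.42 ± 0.41, FDR 1.83e-05), against a fall of 1.28 ± 0.34 in wild type (difference -2.15 ± 0.53, FDR 0.394, not called). Both were far lower in both day 4 libraries. Fibronectin, Fn1, fell by 3.19 ± 0.45 (FDR 8.88e-05), from 2570.3 and 1787 to 219 and 251 CPM; it lies outside the rule for named genes and was added after its values were seen, as were Srebf2, Cdh1 and Epcam below.

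Among genes of stratified, cornified epithelium, falls outnumbered rises, where 10.8% of all genes fell and 9.25% rose. Of 33 tested members 9 fell and 2 rose (median -0.89; wild type 10 and 0). Sprr1a, a protein of the cornified envelope, had 305 and 935 CPM at day 0 and 64.5 and 42.02 CPM at day 4 (-3.35 ± 0.58, FDR 5.49e-04), and Ivl, involucrin, had 27.4 and 38.4 and then 3.48 and 3.31 CPM (-3.08 ± 0.66, FDR 0.003). Ecm1, a secreted matrix protein, had 3923 and 4341 and then 801 and 622 CPM (-2.55 ± 0.46, FDR 8.66e-04). By contrast Krt13 and Krt4, the keratins of moist stratified epithelium, kept high levels. Krt13 had 1767 and 3150.5 CPM at day 0 and 2231 and 3393 CPM at day 4 (0.22 ± 1.05, FDR 0.921), and the days overlapped; Krt4 had 1464 and 2677 and 2603 and 2876 CPM (0.47 ± 0.30, FDR 0.313). In wild type Krt13 averaged 82.1 ± 63.9 CPM at day 0 and 31.1 ± 29.9 CPM at day 4 (± SD, n = 3). Of the 2 genes that rose, Tgm3, a transglutaminase that crosslinks the envelope, had 12.3 and 97.5 and then 98.04 and 219 CPM (2.05 ± 0.65, FDR 0.035). Tgm3 was not called with edgeR (FDR 0.121) or DESeq2 (FDR 0.278). The other was Rptn (1.74 ± 0.43, FDR 0.0086). Replicate 2 of day 0 was close to replicate 1 of day 4 for Tgm3, and neither gene was called without replicate 1 of day 0 (FDR 0.499 and 0.0592) or replicate 2 of day 4 (FDR 0.266 and 0.126). Without replicate 1 of day 0, 14 members fell, and without replicate 2 of day 0 or replicate 1 of day 4, 6 did; the median lay between -1.73 without replicate 1 of day 0 and -0.40 without replicate 2 of day 0. Of the 6 called lower with a promoter window, 5 held TGANTCA (83.3%), against 8.97% of all genes, as did 6 of the 14 other members with a window. N stands for any base, so this pattern includes the site of AP-1 factors but is wider than it.

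Secretory cell genes moved in both directions. Of 25 tested markers 8 rose and 4 fell in labelled knockout (median 0.75), and 3 rose and 9 fell in wild type (median 0.23). The shares over all genes were 9.25% and 10.8% in labelled knockout and 13.7% and 13.3% in wild type. Cyp2f2, a cytochrome P450 that marks airway secretory cells, had 1647 and 2128 CPM at day 0 and 20516 and 21828 CPM at day 4 (3.50 ± 0.26, FDR 1.83e-07). Aldh1a7, an aldehyde dehydrogenase, had 40.6 and 68.3 and then 265 and 539 CPM (2.83 ± 0.34, FDR 2.06e-05). Scgb3a2, a secretoglobin, had 76.4 and 138 and then 327 and 456 CPM (1.90 ± 0.35, FDR 8.59e-04). The days were separate in all 3. Scgb1a1, the defining secretoglobin, was called (5.63 and 32.1 and then 119.6 and 56.6 CPM, 2.55 ± 0.80, FDR 0.0316) but not without replicate 1 of day 0 (FDR 0.323) or replicate 1 of day 4 (FDR 0.209). The mucin Muc5b had 74.4 and 85.1 and then 149 and 349 CPM (1.51 ± 0.31, FDR 0.00225; FDR 0.0523 without replicate 2 of day 4). The 4 that fell were the mucin Muc20 and the keratins Krt7, Krt8 and Krt18, which other simple epithelial cells share. Krt18 went from 1141 and 1321 to 383 and 419 CPM (-1.61 ± 0.27, FDR 5.07e-04).

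Several abundant secretory genes differed more between the replicates of day 4 than between days. Reg3g, an antibacterial lectin, had 5144 and 4453 CPM at day 0 and 5417 and 22979 CPM at day 4 (1.22 ± 0.62, FDR 0.191). Scgb3a1 had 232 and 434 and 459 and 3706 CPM (2.04 ± 0.85, FDR 0.108), and Lcn2, an iron-binding defence protein, had 1508 and 924 and 689.8 and 3938 CPM (0.48 ± 0.63, FDR 0.661). Replicate 2 was the high library in each. Saa3, an acute phase protein of the inflammation list, followed the same library, with 0.1696 and 0.0395 CPM at day 0 and 0.879 and 84.4 CPM at day 4 (4.17 ± 1.34, FDR 0.0361); without that library it was not called (1.20, FDR 0.547). Without replicate 2 of day 4 the secretory list had 4 members that rose and a median of -0.02, and without replicate 1 of day 0 it had 5. The polymeric immunoglobulin receptor Pigr had 1203 and 1479.7 CPM at day 0 and 959 and 2044 CPM at day 4 (0.07 ± 0.25, FDR 0.895), while it fell in wild type (-1.26 ± 0.21, FDR 2.40e-04); the difference of 1.33 ± 0.33 was not called (FDR 0.394).

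Of 14 tested goblet cell markers 1 rose and 2 fell, close to the 9.25% of all genes that rose and the 10.8% that fell. The list's median was 0.36, or 1.09 without replicate 1 of day 4 and -0.45 without replicate 2 of day 4. Agr3, which multiciliated cells also express, had 0.204 and 0.474 and then 6.56 and 5.76 CPM (3.01 ± 0.66, FDR 0.00369), and the trefoil factor Tff1 had 13.98 and 5.65 and then 0.7102 and 0.389 CPM (-3.19 ± 0.40, FDR 3.14e-05). Muc5ac, the main goblet mucin, and its regulator Spdef were not called (0.52 ± 0.29, FDR 0.234, and 0.48 ± 0.60, FDR 0.644). Among 17 tested markers of tuft cells, neuroendocrine cells and ionocytes 3 rose and 1 fell. Foxi1, the factor that specifies ionocytes, had 0.0339 and 0.0791 CPM at day 0 and 2.198 and 4.24 CPM at day 4 (2.69 ± 0.41, FDR 1.77e-04), while Cftr, a channel abundant in ionocytes, was not called (0.13 ± 0.53, FDR 0.904).

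Detoxification enzymes rose more often than they fell, while retinoid genes moved in both directions. Beside the 9.25% of all genes that rose and the 10.8% that fell, 15 of 30 tested detoxification genes rose and 1 fell (median 0.95). In wild type it was 17 and 1 (median 0.90). Cyp2a5 and Cyp4b1, described above, were among them. Aldh3a1, an aldehyde dehydrogenase, had 188 and 144 CPM at day 0 and 1317 and 1257 CPM at day 4 (2.96 ± 0.59, FDR 0.00181). Without replicate 1 of day 0 the number that rose was 8, and without replicate 2 of day 4 it was 10. Nqo1, Txnrd1 and Hmox1, which are among the targets of the oxidative stress factor Nrf2, were not called (-0.03 ± 0.46, -0.21 ± 0.27 and 0.64 ± 0.64). Which other members of the list are Nrf2 targets was not examined. In the retinoid list 3 of 18 rose and 5 fell, or 2 fell without replicate 1 of day 0 or replicate 1 of day 4, and 3 without replicate 2 of day 4. Aldh1a1, which makes retinoic acid, had 175 and 244 and then 2684 and 4829 CPM (4.12 ± 0.34, FDR 7.30e-07), and Adh7, an alcohol dehydrogenase that acts on retinol, had 32.5 and 79.3 and then 478 and 1061 CPM (3.79 ± 0.45, FDR 1.75e-05). Cyp26b1, which breaks retinoic acid down, had 211 and 328 and then 16.4 and 18.8 CPM (-3.87 ± 0.35, FDR 1.57e-06). Crabp2, a carrier of retinoic acid, fell by 1.86 ± 0.25 (FDR 5.30e-05). Aldh1a3, another enzyme that makes retinoic acid, had 656 and 863 and then 91.9 and 120.2 CPM (-2.83 ± 0.85, FDR 0.0265), and lost its call when any of the 4 libraries was left out (FDR 0.0669 to 0.126). Among the enzymes of retinoic acid synthesis named here, a fall thus rests on Aldh1a3 alone.

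Genes of the cell cycle fell. Of 40 tested genes 24 fell and none rose in labelled knockout (median -1.74), and 13 fell in wild type (median -0.78). Over all genes, 10.8% fell in labelled knockout and 13.3% in wild type. Mki67, which marks cells in cycle, had 188 and 46.8 CPM at day 0 and 15.6 and 5.797 CPM at day 4 (-3.23 ± 0.67, FDR 0.00224). Ccna2, the cyclin of S phase, had 107 and 25.1 and then 5.82 and 2.06 CPM (-3.70 ± 0.73, FDR 0.00165). Nusap1, Birc5 and Rrm2, which serve the spindle, cell division and nucleotide synthesis, fell by 3.61 ± 0.74 (FDR 0.00206), 3.40 ± 0.68 (FDR 0.00185) and 3.00 ± 0.62 (FDR 0.00222). In all of these replicate 1 of day 0 held the highest level by a wide margin, and replicate 2 of day 0 was still above both day 4 libraries. Without replicate 1 of day 0, 7 genes fell and the median was -1.05; without replicate 2 of day 0, 30 fell; without replicate 2 of day 4, 9 did. Cdk1 and Cdc20, cell cycle genes that multiciliated cells also use, were not called (118 and 38.4 and then 49.04 and 46.4 CPM for Cdk1, -0.50 ± 0.53, and -0.43 ± 0.51 for Cdc20), and their days overlapped. Ccnd1 and Pcna were not called either (-0.71 ± 0.26, FDR 0.0648, and -0.54 ± 0.28, FDR 0.193). The change was lower in labelled knockout than in wild type for 40 of the 40 genes, against 51.7% of all tested genes. These genes were measured in the same libraries and are not independent observations, so the count is not a test. It was not repeated with a library left out. The median difference was -0.85, and none of the differences was called (1 had an unadjusted p under 0.05 in limma). The list summed at day 0 to 3956 and 1927 CPM in labelled knockout and to 2158, 1733 and 1250 CPM in wild type. Without replicate 1 of day 0 the labelled-knockout median of -1.05 lay closer to the -0.78 of wild type. At day 0 the mean of Mki67 was 44.01 ± 22.6 CPM in wild type (± SD, n = 3).

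The letters TTTGAA, the element of cell cycle promoters called CHR, were in the promoter windows of 8 of the 18 genes that fell and have one (44.4%), against 20.2% of all genes, and in those of 4 of the 11 other members with one. Mki67 is shown as the gene with the largest fall among those with a match, whose 2 matches begin 116 and 98 bases before the start and are in capitals.
Mki67, chr7:135716380-135716629, minus strand: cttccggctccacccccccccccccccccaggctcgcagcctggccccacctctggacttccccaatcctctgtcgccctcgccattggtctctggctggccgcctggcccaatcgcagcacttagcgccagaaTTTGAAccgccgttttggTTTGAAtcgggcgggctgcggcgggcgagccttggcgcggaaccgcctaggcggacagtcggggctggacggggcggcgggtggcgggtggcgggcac

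**Figure D4:**
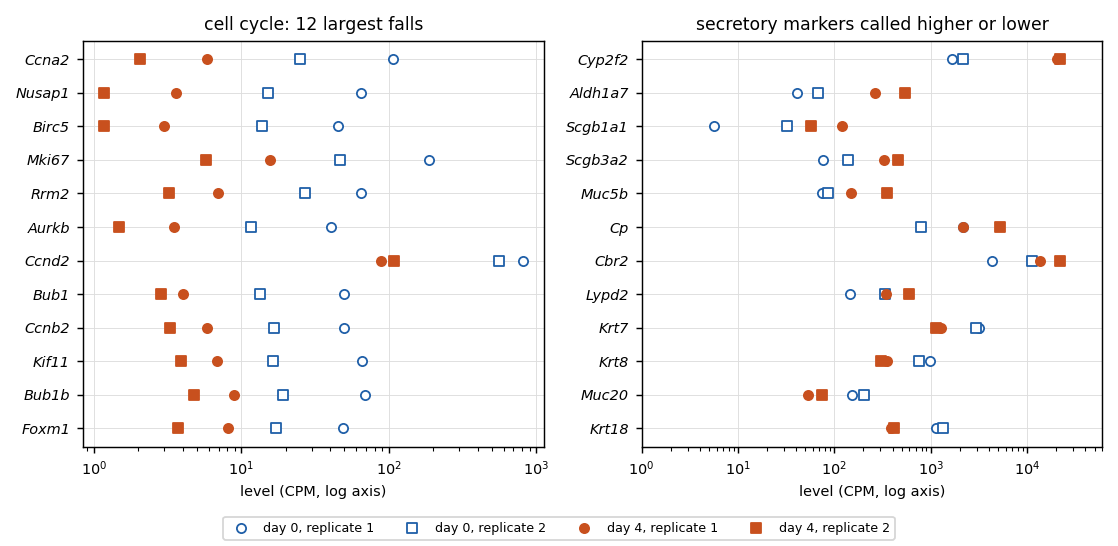
Level of the 12 cell cycle genes with the largest fall (left) and of the 12 secretory markers called in either direction (right) in each of the 4 libraries labelled knockout, in CPM on a log axis; open symbols are day 0, filled symbols day 4, circles replicate 1 and squares replicate 2. Replicate 1 of day 0 is the highest library in the 12 cell cycle genes, and the replicates of day 4 differ more among secretory genes such as Cp and Muc5b than for Cyp2f2.

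Of 29 tested genes of epithelial inflammation 16 fell and 1, Saa3, rose (median -1.54; wild type 16 and 0, median -1.45); without replicate 1 of day 4, 3 rose. The chemokine gene Cxcl2 had 55.4 and 16.5 CPM at day 0 and 0.372 and 1.01 CPM at day 4 in labelled knockout, and 1.46, 1.17 and 2.59 and then 0, 0.0964 and 0 CPM in wild type. Its fall was therefore from a higher start, and the difference between genotypes of -2.72 ± 0.56 was not called (FDR 0.164). Cxcl1 had 117 and 52.2 and then 3.15 and 11.3 CPM (-3.59 ± 0.59, FDR 3.59e-04), and Il33, an alarm cytokine of epithelia, had 283 and 132 and then 14.7 and 20.2 CPM (-3.45 ± 0.72, FDR 0.0024). Ccl20, Csf3 and Icam1 were not called (-0.31 ± 0.83, 0.46 ± 0.65 and 0.08 ± 0.22), and replicate 2 of day 4 was the highest of the 4 libraries in all 3. Among 22 tested genes of the immediate early and heat shock responses, 7 fell and none rose. For this list and the inflammation list, the shares over all genes were 10.8% lower and 9.25% higher. Besides Atf3, Fosb had 60.9 and 40.5 and then 4.09 and 0.7003 CPM (-4.42 ± 0.63, FDR 9.67e-05), Nr4a1 fell by 4.01 ± 0.77 (FDR 0.0013) and Jun by 2.82 ± 0.34 (FDR 2.01e-05). Fos and Egr1, from the same class, were not called (-1.23 ± 0.86 and -0.77 ± 0.54).

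Genes of cholesterol synthesis fell almost as a whole, 21 of 22 with none higher (median -1.35), and 15 fell in wild type (median -0.87). Over all genes, 10.8% fell in labelled knockout and 13.3% in wild type. Hsd17b7, an enzyme of the late pathway, had 131 and 107 CPM at day 0 and 17.96 and 24.5 CPM at day 4 (-2.47 ± 0.24, FDR 3.00e-06), and Cyp51 had 333 and 265 and then 53.9 and 89.5 CPM (-2.09 ± 0.36, FDR 5.13e-04). Srebf2, the factor that drives the pathway, had 346 and 353 and then 176 and 165 CPM (-1.04 ± 0.19, FDR 8.39e-04). Both day 4 libraries were below both day 0 libraries in all 22 genes, but the share of all tested genes with separate days was not counted. Nsdhl was the gene not called (-1.16 ± 0.41, FDR 0.0575). Without replicate 1 of day 0 the number that fell was 13, and without replicate 1 of day 4 it was 14. The change was lower in labelled knockout than in wild type for 22 of the 22 genes, against 51.7% of all tested genes. These genes were measured in the same libraries and are not independent observations, so the count is not a test. It was not repeated with a library left out. The median difference was -0.55, and none of these differences was called. The list summed at day 0 to 4380 and 3183 CPM in labelled knockout and to 2662, 2445 and 1678 CPM in wild type.

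Markers of cells outside the epithelium were mostly low, and those called mostly fell, where 10.8% of all genes fell and 9.25% rose. Of 15 leukocyte markers 8 were tested, of which 1 rose and 3 fell (1 without replicate 2 of day 0); Tyrobp and Emr1 were at 0 in all 4 labelled-knockout libraries, and Ptprc, the pan-leukocyte marker, at 0.00 to 0.19 CPM. The rise of Lyz2 stood with a summed level of the leukocyte list of 121 and 251 CPM at day 0 and 914 and 7293 CPM at day 4, most of which is Lyz2 itself at day 4. The antigen presentation genes H2-Ab1 and Cd74, which epithelial cells can also express, fell by 2.96 ± 0.65 (FDR 0.00354; 0.0579 without replicate 2 of day 0) and 2.60 ± 0.61 (FDR 0.00573; 0.104 without replicate 1 of day 4). The fibroblast list summed to 284 and 156 CPM at day 0 and 98.7 and 68.6 CPM at day 4, with 3 of 13 tested members lower (1 without replicate 1 of day 0 or replicate 2 of day 4) and the collagen genes Col1a1 and Col3a1 not called (-0.81 ± 1.20 and -0.41 ± 1.20). The smooth muscle and cartilage list summed to 135 and 156 and then 34.8 and 62.6 CPM, with 5 of 8 members lower (1 higher and 2 lower in wild type). Among them Sox9, which airway epithelium also expresses, fell by 2.25 ± 0.32 (FDR 1.00e-04), and Acta2 by 1.81 ± 0.44 (FDR 0.00744; 0.115 without replicate 1 of day 4). Without that library 2 members of this list fell, and without replicate 2 of day 0, 3 did. The part of such cells in the falls of matrix genes was not tested. The epithelial markers Cdh1 and Epcam were high on both days, with 1939 and 1624 and then 1084 and 1027 CPM for Cdh1 and 965 and 994 and then 334 and 414 CPM for Epcam, and 7 of 12 tested epithelial markers fell, these among them.

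The test of the change between genotypes called 3 of 15738 genes (0.0191%), all with the lower value in labelled knockout, while 458 had an unadjusted p under 0.05 in limma. Trp73 differed by -3.54 ± 0.51 (FDR 0.021). Grik3, a kainate-type glutamate receptor subunit (chromosome 4, 125490700 to 125714173), had 5.97 and 10.5 CPM at day 0 and 0.473 and 0.0778 CPM at day 4 in labelled knockout, and 0.0729, 0.893 and 0.0821 and then 0.819, 0.5303 and 0.299 CPM in wild type. It fell by 3.49 ± 0.41 in labelled knockout (FDR 1.42e-05) and changed by 0.41 ± 0.33 in wild type (FDR 0.396), a difference of -3.90 ± 0.52 (FDR 0.0176). Prss12, a secreted serine protease (chromosome 3, 123446913 to 123506597), had 24.4 and 18.1 and then 6.66 and 4.63 CPM in labelled knockout and 2.33, 2.13 and 2.18 and then 3.08, 5.93 and 5.38 CPM in wild type. It fell by 1.83 ± 0.34 (FDR 9.83e-04) and rose by 0.92 ± 0.28 in wild type (FDR 0.02), a difference of -2.75 ± 0.44 (FDR 0.0471). In all 3 genes the labelled-knockout libraries of day 0 lay above every wild-type library of day 0, so a difference in level was already present at day 0. None of the 3 was called with the fit restricted to days 0 and 4, which called 0 genes (277 at an unadjusted p under 0.05), nor without labelled-knockout replicate 2 of day 4 (FDR 0.102 to 0.233), wild-type replicate 3 of day 0 (FDR 0.0579 to 0.129) or wild-type replicate 2 of day 4 (FDR 0.0651 to 0.154); Trp73 was also lost without wild-type replicate 3 of day 4 (FDR 0.0884), and Prss12 lost its call in 8 of the 10 leave-outs (FDR 0.0538 to 0.233). The edgeR test on recovered reads called 1 gene, Trp73, but not Grik3 (FDR 0.196) or Prss12 (FDR 0.084), and DESeq2 called 18. A gene that misses this test is not shown to change alike in both genotypes: for Foxj1 the SE of the difference was 0.44 on the log2 scale.

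**Figure D5:**
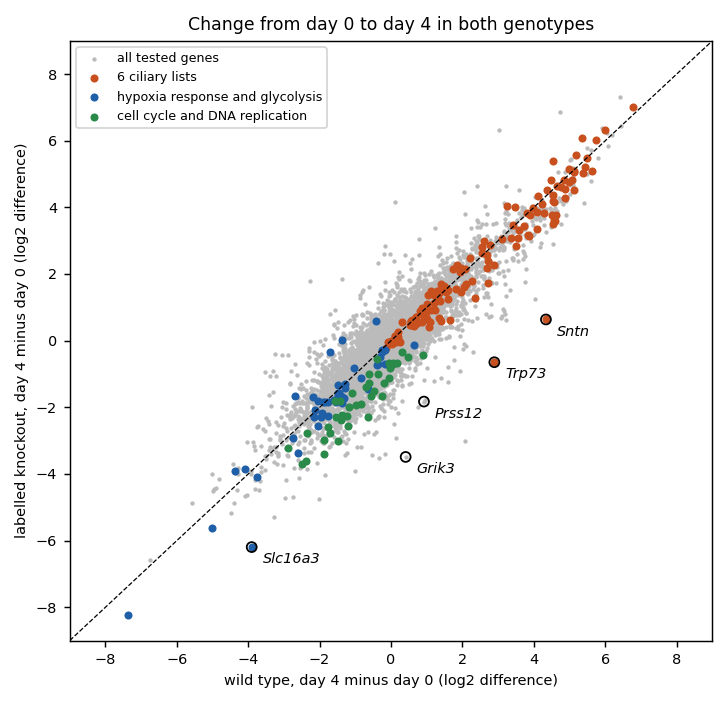
Change from day 0 to day 4 (log2 difference) of the 15738 tested genes in wild type (x axis) and in labelled knockout (y axis), with the 6 ciliary lists, hypoxia response and glycolysis, and cell cycle genes in colour; the dashed line marks equal change. Grik3, Trp73 and Prss12, the genes called for the difference, are circled, as are Sntn and Slc16a3, which were not called for it.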

How the data were processed

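Tracheal epithelial cultures were sequenced as TruSeq RNA v2 libraries, per the labels' protocols. The deposited values are a signal, read counts that the authors scaled by 1 factor per library, set separately for each day, and rounded; the submitters' processing notes name STAR 2.3.0e, DESeq2 1.4.5 and mm10. For the counting tool, annotation and use of strand nothing is given in the sources used here. The steps between low values returned whole reads (100% of nonzero values within 0.1 read). These were scaled over 20 libraries by TMM to CPM, since the deposited factors do not compare days. Genes with at least 0.5 CPM in 2 libraries (15738 of 38355) were tested on log2(CPM + 0.5) with limma 3.58.1 (R 4.3.3; trend and robust), with 8 group means and Benjamini-Hochberg adjustment over all genes. As alternatives on the recovered reads, edgeR 4.0.16 called 3294 genes and DESeq2 1.42.0 called 3799, against 3159. The series text speaks of independent biological replicates, but the labels used here do not say whether they came from separate animals. The p-values thus measure the spread between these libraries, part of which may be technical, and precision is limited by 2 libraries a day.

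Members and gene lists were chosen with earlier results of these data known. Named genes were Trp73, the 12 largest called rises and falls with no overlap between days and at least 5 CPM in the higher group, without predicted genes, those called for the genotype difference, and up to 5 called genes per list and direction; any member not called could be named. A few genes that the rule names are not reported here. Of 31 lists, that of mitochondrially encoded genes had no member in the table. Symbols are those of the deposited tables (Dnahc is Dnah elsewhere). Coordinates are from GENCODE vM21 (GRCm38; 36602 of 38355 IDs matched), promoters from RefSeq. The scripts were tested on simulated data. Each library was left out in turn; the lone library of that group was then assumed to vary like those of other groups.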

Additional observations from a re-analysis of the deposited data

Results flagged for a closer look

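The change from day 0 to day 4 differed between the genotypes, by limma's test of the difference itself, for 3 genes, each with the lower value in libraries labelled knockout. The difference was -3.90 ± 0.52 for Grik3 (log2, FDR 0.0176), -3.54 ± 0.51 for Trp73 (FDR 0.0210) and -2.75 ± 0.44 for Prss12 (FDR 0.0471). Grik3 and Prss12 were not called with a pseudocount of 0.1 (FDR 0.108 and 0.0715, limma) or with edgeR (FDR 0.196 and 0.084). Trp73 rose in 3 of 3 wild-type libraries of day 4 relative to every wild-type library of day 0, and both labelled-knockout libraries of day 4 lay below both of day 0. The same held for Prss12, while the wild-type days overlapped for Grik3.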

How the results depend on the processing

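The 3159 genes called in labelled knockout became 2062 in a fit of days 0 and 4 alone and 1560 (1477 shared) in a fit of the 4 labelled-knockout libraries alone. Leaving out each of those 4 gave 1959 to 2648. Of 157 named called genes 113 kept their call in all 16 alternatives, and none changed direction. Wild type had 4244 calls, or 2933 to 4823 when a library was left out. By library size alone, 62.5% of its calls were higher, against 50.7%. The genotype difference called 3 genes, and 14 without the filter on low values, 1 with a pseudocount of 0.1 and 11 with a pseudocount of 1. It called 1 with edgeR, 18 with DESeq2 and 0 in a limma fit of days 0 and 4 alone (277 at an unadjusted p under 0.05). Leaving out a wild-type library gave 0 to 21. The 21, all lower in labelled knockout, came without wild-type replicate 1 of day 4, titled day 3. The cause was not tested. List medians changed sign for fibroblast markers (0.58 without replicate 1 of day 0), goblet cells (-0.45 without replicate 2 of day 4), secretory cells (-0.02 without replicate 2 of day 4), the interferon response (0.14 without replicate 2 of day 0), tuft cells and the like (-0.02 without replicate 1 of day 0) and endothelial markers (-0.15 without the filter). Same-numbered libraries did not deviate together by the rule of a correlation over 0.1 in every pair (labelled knockout 0.146, wild type 0.0576, 0.235 and 0.0944), although each wild-type library correlated best with its own number. With the replicate number as a block within genotype, 4271 genes were called in labelled knockout, 5556 in wild type and 9 for the difference; with a block shared by genotypes, 4127, 5396 and 10.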

Other observations

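Further groups of genes are given by their counts in the libraries labelled knockout, where 9.25% of all genes rose and 10.8% fell. Among 25 tested regulators of epidermis and barrier 3 rose and 3 fell (median -0.21). Sox2, which maintains airway identity, had 127 and 119 CPM at day 0 and 272 and 250.3 CPM at day 4 (log2 change 1.08 ± 0.17, FDR 2.47e-04, limma), and Foxa2 and Ovol2 also rose (1.30 ± 0.30 and 1.94 ± 0.30). Barx2 fell (-1.33 ± 0.24), as did Sox9. Of 21 genes of ion and water transport 2 fell and none rose; the chloride transporter gene Slc26a9 had 87.9 and 63.2 and then 4.36 and 7.98 CPM (-3.55 ± 0.37, FDR 4.70e-06) and the potassium channel gene Kcnn4 8.48 and 3.3995 and then 0.4396 and 0.3501 CPM (-2.73 ± 0.58, FDR 0.00279). The days were separate in both genes.

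Of 19 tested genes of the Notch pathway, through which neighbouring cells divide into secretory and multiciliated fates, 7 fell and 1 rose, but 2 fell without replicate 1 of day 0 and 3 without each of the other libraries. Of 29 p53 targets 8 fell and none rose, and 2 fell without replicate 2 of day 0, or 5 without either library of day 4. Cdkn1a, the best known of them, had 333 and 390.4 and then 343 and 228 CPM (-0.36 ± 0.22, FDR 0.271). Of 26 genes of the interferon response 3 fell and none rose, with 0 lower without replicate 2 of day 0 by limma and 1 without either library of day 4.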
